A study of Mus musculus with 6 samples.

Results

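S100 proteins are small calcium-binding proteins of the EF-hand superfamily that usually work as dimers. Inside the cell they bind and modulate target proteins such as annexins, and some members are also secreted and act on receptors of innate immunity. In blood, S100a8 and S100a9 are abundant in neutrophils and monocytes, where they form the heterodimer calprotectin, while S100a10 and S100a11 are best known as partners of annexin A2 and annexin A1.

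The 8 S100 genes described here (S100a1, S100a4, S100a6, S100a8, S100a9, S100a10, S100a11 and S100a13) were chosen by name from the 24965 genes of the expression table, and 7 of them passed the filter on low values. RNA-seq was performed on 3 WT and 3 Hemgn-/- libraries of donor cells. Hemgn encodes hemogen, a nuclear protein of hematopoietic cells, and the Hemgn-/- mice carried a small frameshift deletion in every tissue, so that a transcript could still be made. In both groups, equal numbers of bone marrow cells of CD45.2+ donors were injected into CD45.1+ recipients given 9 Gy of irradiation in a split dose, and donor cells were sorted from the recipients 6 h post-BMT (bone marrow transplantation). The mice of the study were 8 to 10 weeks old. The labels describe the sort as CD45.2+Lin-Sca-1+, whereas the design text and the methods add c-Kit, and these sources also differ on the injection route and the library kit. No source used here ties a library to 1 recipient, so pooling of animals is not known, although the methods call the libraries of a group biological replicates from recipient marrow.

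The libraries held 23668022 to 28897303 fragments. Hemgn itself was at 5.64, 2.96 and 4.68 FPKM (fragments per kilobase of gene, scaled to library size) in WT libraries and at 0.755, 0.913 and 1.60 FPKM in Hemgn-/- libraries, and these groups did not overlap. The most abundant transcripts were mostly granulocyte, monocyte and B cell transcripts rather than stem cell transcripts: by mean FPKM the 8 highest genes were Ngp, Lyz2, S100a9, Ltf, Igkc, Fth1, S100a8 and Camp. Of the stem and progenitor genes listed, Ly6a (Sca-1) lay between 8.27 and 17.3 FPKM and Cd34 between 7.23 and 11.9 FPKM. Kit, the c-Kit receptor, lay between 5.50 and 7.24 FPKM and Mecom, a stem cell transcription factor and the lowest of the list, at most at 0.415 FPKM. The libraries are called HSPCs (hematopoietic stem and progenitor cells) after the study, although their leading transcripts are not those of HSPCs.

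Of the 7 members tested, 1 rose in Hemgn-/- HSPCs, 0 fell and 6 did not pass the test (limma on log2(FPKM + 1), adjusted p under 0.05 over 13739 genes). At the same threshold 6.46% of all genes tested passed, 4.37% higher and 2.09% lower, so that 1 of 7 members is not a result about the family as a whole. That split of all genes depends on the scaling: it was 600 higher and 287 lower on the deposited values, 342 and 387 after median-ratio scaling, 368 and 346 after quantile normalization, and 1049 and 238 after rescaling to equal FPKM totals. With an unadjusted p under 0.05 and a change of at least 1.5-fold, 1 member and 6.83% of all genes passed. The median log2 fold change was -0.07 over the 7 members and 0.0875 over all genes tested. The member that rose was S100a10, and its change was past the threshold under each of the 16 alternative settings.

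**Figure D1:**
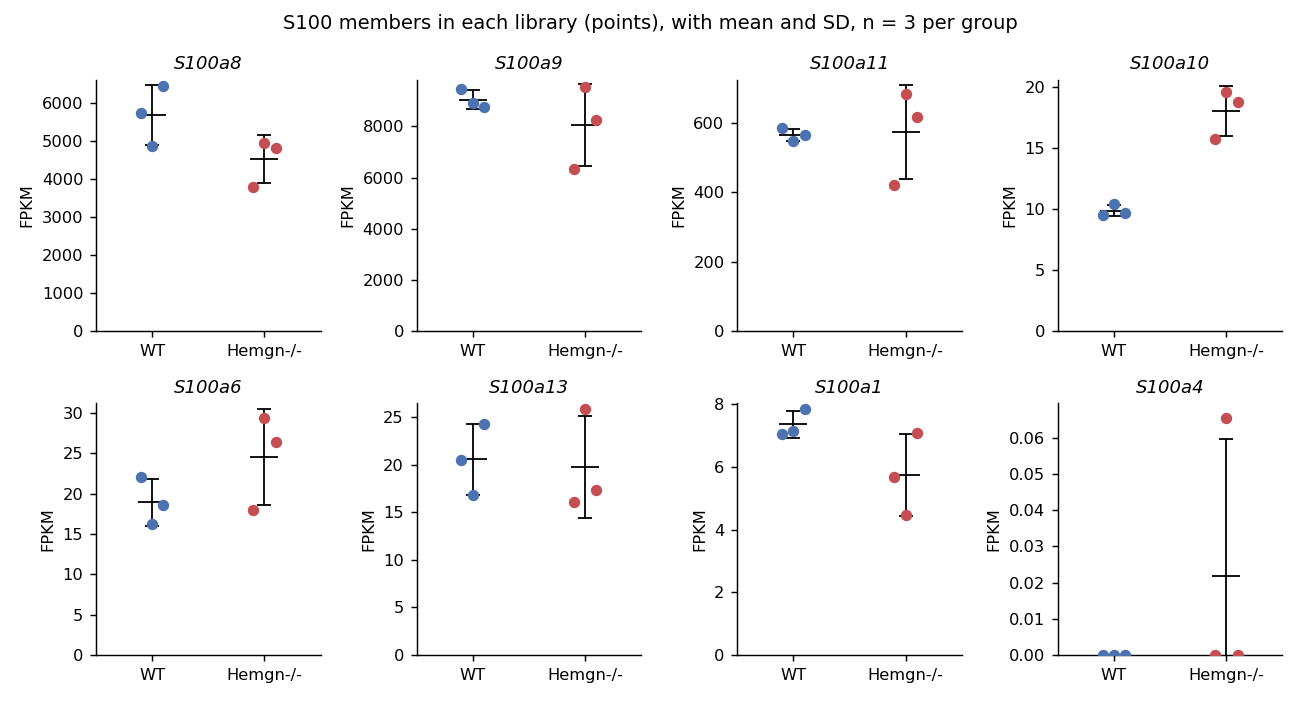
FPKM of the 8 S100 members in the 3 WT (blue) and 3 Hemgn-/- (red) libraries, 1 panel per gene with its own linear axis from 0; bars are the mean and SD. S100a10 is the member whose groups do not overlap (9.55 to 10.4 against 15.7 to 19.6 FPKM), and S100a4 is at 0 in all libraries but 1.

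S100a10 (also p11) forms a tetramer with annexin A2 that links membranes to the actin cytoskeleton and, at the cell surface, promotes plasmin formation. The gene lies at chr3:93555080-93564643 on the plus strand (GRCm38). Its level was 9.55, 10.4 and 9.67 FPKM in WT libraries and 15.7, 19.6 and 18.8 FPKM in Hemgn-/- libraries. Every Hemgn-/- library lay above every WT library, as was the case, in either direction, for 27.4% of all genes tested (19.2% higher in Hemgn-/- and 8.18% lower). The log2 fold change was 0.80 ± 0.11 (SE, n = 3 per group), or 1.74-fold with a 95% confidence interval of 1.47 to 2.07, and limma's adjusted p was 0.0042. These values rest on 274 to 325 fragments per WT library and 523 to 658 per Hemgn-/- library. Over the alternative settings the log2 fold change ranged from 0.71 to 0.93 and the adjusted p from 0.0019 to 0.028.

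Annexin A2, the partner of S100a10 in that tetramer, did not pass the test. Anxa2 was at 47.8, 47.2 and 48.7 FPKM in WT libraries and at 44.1, 53.1 and 51.5 FPKM in Hemgn-/- libraries, so that the groups overlapped. Its log2 fold change was 0.04 ± 0.09 (SE, n = 3 per group, 95% confidence interval -0.15 to 0.24, limma adjusted p = 0.81), and its sign was negative after median-ratio scaling and quantile normalization. As FPKM is a level per length of annotated exons, the pair can be set side by side on that scale. The ratio of S100a10 to Anxa2 was 0.200, 0.221 and 0.199 in WT libraries and 0.357, 0.369 and 0.365 in Hemgn-/- libraries. The ratio thus moved with S100a10 and was nearly the same in the 3 libraries of each group. Ahnak, a giant scaffold protein that binds the tetramer, was at 5.08, 4.97 and 5.39 FPKM in WT libraries and at 6.56, 6.93 and 6.98 FPKM in Hemgn-/- libraries. Its groups did not overlap, but its log2 fold change of 0.35 ± 0.10 (SE) did not pass (limma adjusted p = 0.092).

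S100a11, which binds annexin A1, is the next gene before S100a10 among the genes tested, ending 28792 bases from its start (chr3:93520488-93526287). It was the third most abundant member, at 584, 549 and 565 FPKM in WT libraries and 422, 683 and 617 FPKM in Hemgn-/- libraries. The WT libraries were close to each other, and the Hemgn-/- libraries lay on both sides of them. The log2 fold change was -0.01 ± 0.15 (SE, n = 3 per group, 95% confidence interval -0.36 to 0.34, limma adjusted p = 0.98), and its sign was positive after rescaling to equal FPKM totals. Per length, S100a11 was 52.7 to 61.1 times as abundant as S100a10 in WT libraries and 26.8 to 34.8 times in Hemgn-/- libraries. Annexin A1, chosen after its values were seen, was at 1441, 1190 and 1602 FPKM in WT libraries and 1114, 1009 and 1084 FPKM in Hemgn-/- libraries, without overlap, with a log2 fold change of -0.39 ± 0.10 (SE, limma adjusted p = 0.060).

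S100a8 and S100a9 lie tail to tail on chromosome 3, 22596 bases apart, at chr3:90668978-90670035 on the plus strand and chr3:90692632-90695721 on the minus strand. Together they made up 95.0% to 96.0% of the summed FPKM of the members in each library, and by mean FPKM they ranked 7 and 3 among all genes. Bases upstream of their starts are shown here because these genes supply most of the family's transcripts. They are from RefSeq promoter windows (GRCm38.p6, 250 bases before to 50 after the start), limited to bases outside the genes' GENCODE exons, and capitals mark matches to the PU.1 letters in S100a8 and to the C/EBP letters in S100a9, both families of myeloid transcription factors. The S100a8 bases are chr3:90668821-90668977 on the plus strand, and the S100a9 bases are chr3:90695722-90695971 read on the minus strand.
S100a8: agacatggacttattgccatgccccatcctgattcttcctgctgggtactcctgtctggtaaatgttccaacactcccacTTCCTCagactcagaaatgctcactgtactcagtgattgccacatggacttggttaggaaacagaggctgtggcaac
S100a9: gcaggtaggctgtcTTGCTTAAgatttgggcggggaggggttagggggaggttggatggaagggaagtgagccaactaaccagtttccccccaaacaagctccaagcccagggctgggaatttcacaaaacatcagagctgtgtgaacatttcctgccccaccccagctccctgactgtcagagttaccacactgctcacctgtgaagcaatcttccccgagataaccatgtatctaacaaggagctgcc

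The windows of 7 of the 8 members matched by symbol, and S100a10 did not. On both strands, 5 motifs were searched in the whole windows of 300 bases: PU.1 (GAGGAA), C/EBP (TTGCNNAA), AP-1 (TGAGTCA), the GATA factor motif, spelled AGATAA, and ISRE, the interferon-stimulated response element, here its first letters (GAAANNGAA). PU.1 letters were in the windows of S100a4, S100a8 and S100a11 and in 28.3% of 32851 windows. C/EBP letters were in that of S100a9 (10.8% of windows), AP-1 letters in that of S100a11 (5.20%) and GATA letters in those of S100a9 and S100a11 (11.2%). ISRE letters were in that of S100a1 (8.56%). No matches of different motifs overlapped in these windows.

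S100a8 was at 5723, 4874 and 6452 FPKM in WT libraries and 3790, 4956 and 4820 FPKM in Hemgn-/- libraries. The Hemgn-/- libraries were on average lower, and the groups overlapped, since the lowest WT library lay below the highest Hemgn-/- library. The log2 fold change was -0.33 ± 0.12 (SE, n = 3 per group), with an unadjusted p of 0.027 that did not pass after adjustment (limma adjusted p = 0.17). Over the alternative settings it ranged from -0.44 to -0.06, the last after quantile normalization.

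S100a9 was at 9470, 8917 and 8742 FPKM in WT libraries and 6340, 9539 and 8268 FPKM in Hemgn-/- libraries, with the lowest and the highest value both among the Hemgn-/- libraries. Its log2 fold change was -0.19 ± 0.13 (SE, n = 3 per group, 95% confidence interval -0.48 to 0.10, limma adjusted p = 0.45), and its sign was positive after quantile normalization. The ratio of S100a8 to S100a9 was 0.604, 0.547 and 0.738 in WT libraries and 0.598, 0.520 and 0.583 in Hemgn-/- libraries. By FPKM, S100a9 was thus the more abundant transcript of calprotectin in all 6 libraries, and the ratios of the groups overlapped. These ratios rest on annotated exon lengths of 694 bases for S100a8 and 522 for S100a9. In the third WT library their fragments were close, at 124110 for S100a8 and 126473 for S100a9.

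Calprotectin transcripts come mostly from neutrophils and monocytes, so markers of these cells are given beside them. Their counts stand beside 4.37% of all genes tested that rose and 2.09% that fell. Of 5 secondary granule genes, which neutrophils make before they mature, 4 fell, and their summed FPKM was 58600 to 63100 in WT libraries and 35800 to 37200 in Hemgn-/- libraries. The most abundant, Ngp (neutrophilic granule protein), was at 43176, 44761 and 46692 FPKM in WT libraries and at 26946, 27961 and 26488 FPKM in Hemgn-/- libraries (log2 fold change -0.73 ± 0.05, SE, limma adjusted p = 0.00013), a change that quantile normalization removes by construction, since it sets the most abundant gene equal in all libraries. Without a filter on low values Ngp did not pass either (limma adjusted p = 0.40). Of 6 genes of mature neutrophils, 1 (Cxcr2) rose and 1 (Cd177) fell, and their summed FPKM was 7230 to 7700 in WT libraries and 6930 to 7150 in Hemgn-/- libraries. Cd177, named after its values were seen, was at 1987, 1836 and 2075 FPKM in WT libraries and 1424, 1331 and 1380 FPKM in Hemgn-/- libraries. The lower sum does not stand for the whole list, since 4 of the 6 genes had log2 fold changes above 0. Mmp8, a neutrophil collagenase and the most abundant of these, had a log2 fold change of 0.01 ± 0.06 (SE, limma adjusted p = 0.96), with a negative sign after median-ratio scaling and a value of 0.43 that passed after quantile normalization. Quantile normalization sets values by rank alone. S100a9, S100a8 and Mmp8 ranked 3, 7 and 9 by mean FPKM, so under that setting their changes follow their rank among the top genes and not their own level.

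Set against neutrophil genes, the direction of S100a9 depended on the gene. The ratio of S100a9 to Ngp was 0.219, 0.199 and 0.187 in WT libraries and 0.235, 0.341 and 0.312 in Hemgn-/- libraries, without overlap. Against the 5 secondary granule genes, the mean ratio was higher in Hemgn-/- libraries for every gene, and the groups did not overlap for 3 of them. Those 5 genes had log2 fold changes of -0.92 (Camp) to -0.56 (Lcn2), below those of S100a9 (-0.19) and S100a8 (-0.33), so the higher ratios restate their fall. How often ratios separate over all genes was not counted, and 27.4% of single genes tested did not overlap. Against the 6 genes of mature neutrophils the ratio of S100a9 went both ways. The ratio was lower without overlap against Mmp9 and Cxcr2, higher without overlap against Ly6g, and overlapped against Retnlg, Mmp8 and Cd177 (these genes are named after their values were seen). For Retnlg it was 8.48, 8.17 and 7.45 in WT libraries and 5.76, 7.46 and 6.58 in Hemgn-/- libraries, and for Ly6g it lay between 20.5 and 25.0 in WT and between 25.4 and 27.2 in Hemgn-/- libraries. The ratio of S100a8 was lower without overlap against 4 mature neutrophil genes (Retnlg, Mmp8, Mmp9 and Cxcr2) and overlapped against Ly6g and Cd177. For Mmp8 the groups nearly touched, as the ratio lay between 1.9 and 2.23 in WT and between 1.36 and 1.89 in Hemgn-/- libraries. For Retnlg it lay between 4.47 and 5.50 in WT and between 3.45 and 3.88 in Hemgn-/- libraries. Against secondary granule genes the ratio of S100a8 was higher without overlap for 3 and overlapped for 2. In bulk samples, fewer cells of a type and less RNA per cell cannot be told apart, and the part of neutrophil content in the calprotectin values was not tested.

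**Figure D2:**
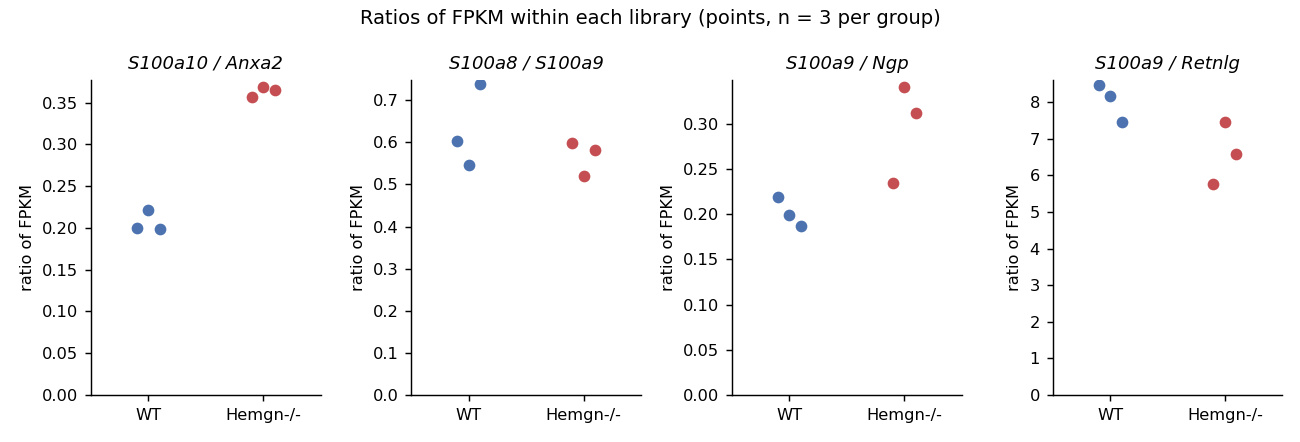
Ratios of FPKM within each of the 3 WT (blue) and 3 Hemgn-/- (red) libraries, on linear axes from 0, for S100a10 to Anxa2, S100a8 to S100a9, S100a9 to Ngp and S100a9 to Retnlg. The ratio of S100a10 to Anxa2 lies between 0.199 and 0.221 in WT and between 0.357 and 0.369 in Hemgn-/- libraries, while that of S100a8 to S100a9 overlaps.

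S100a6 (calcyclin), which binds annexins and the ubiquitin-ligase adaptor Cacybp, was at 22.1, 16.3 and 18.6 FPKM in WT libraries and 18.0, 29.4 and 26.4 FPKM in Hemgn-/- libraries. Of the Hemgn-/- libraries, 2 lay above every WT library and the other among them. The log2 fold change was 0.34 ± 0.18 (SE, n = 3 per group, 95% confidence interval -0.07 to 0.75, limma adjusted p = 0.33). It was 0.54 without the first (limma adjusted p = 0.072) and 0.20 without the second Hemgn-/- library.

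S100a13, which takes part in the release of fibroblast growth factor 1 and interleukin 1 alpha, was at 20.5, 16.8 and 24.3 FPKM in WT libraries and 16.1, 25.9 and 17.3 FPKM in Hemgn-/- libraries, with a log2 fold change of -0.07 ± 0.19 (SE, 95% confidence interval -0.50 to 0.36, limma adjusted p = 0.87). Its sign was positive after rescaling to equal FPKM totals. S100a1, best known as a regulator of calcium cycling in muscle, was at 7.06, 7.15 and 7.85 FPKM in WT libraries and 5.67, 4.46 and 7.08 FPKM in Hemgn-/- libraries, with a log2 fold change of -0.33 ± 0.15 (SE, 95% confidence interval -0.67 to 0.02, limma adjusted p = 0.26). The groups overlapped for both genes. S100a1 and S100a13 are transcribed away from each other, and their annotated starts are separated by 42 bases, chr3:90514393-90514434, given here on the plus strand, that of S100a13. They hold no match to the 5 motifs.
S100a1 to S100a13: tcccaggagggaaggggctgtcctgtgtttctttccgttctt

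Between these neighbours, the ratio of S100a13 to S100a1 was 2.90, 2.35 and 3.10 in WT libraries and 2.83, 5.80 and 2.45 in Hemgn-/- libraries. The second Hemgn-/- library stood above the other 5, with the highest S100a13 and the lowest S100a1 value. S100a1 rested on only 81 to 151 fragments per library, fewer than any other member tested, and without the second Hemgn-/- library its log2 fold change was -0.19.

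S100a4, known from motile and mesenchymal cells and also found in leukocytes, was listed at 0 in 5 libraries and at 0.0654 FPKM, which is 1 fragment, in the second Hemgn-/- library. It did not pass the filter and was not tested. A count of 0 allows up to 3 fragments, or 0.178 to 0.217 FPKM by library, for counting error only. Of its 584 exon bases, 302 (51.7%) lie also in exons of Gm42674, which is on the same strand and has no row in the table used here. How fragments on shared bases were counted is not given in the sources used here, so these values do not show that S100a4 was absent. The other 7 members share no exon base with another gene of their strand.

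Outside the 8 members, 7 further S100 genes had a row, 4 of them were tested and 0 passed. S100a7a, a relative of the human psoriasin genes that lies 10308 bases before S100a8, was at 0.460, 1.22 and 0.891 FPKM in WT libraries and 1.88, 2.94 and 1.63 FPKM in Hemgn-/- libraries. Its groups did not overlap, but its log2 fold change of 0.76 ± 0.23 (SE) did not pass (limma adjusted p = 0.099). S100a2 (log2 fold change 0.28 ± 0.37, SE), S100a16 (-0.34 ± 0.20) and S100g (0.30 ± 0.35) had intervals that included 0, and S100a2 and S100g rested on at most 16 fragments per library. S100a3, S100a14 and S100b stayed under 1 FPKM in every library, and S100a5, S100a7l2 and S100z are not analysed here.

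**Figure D3:**
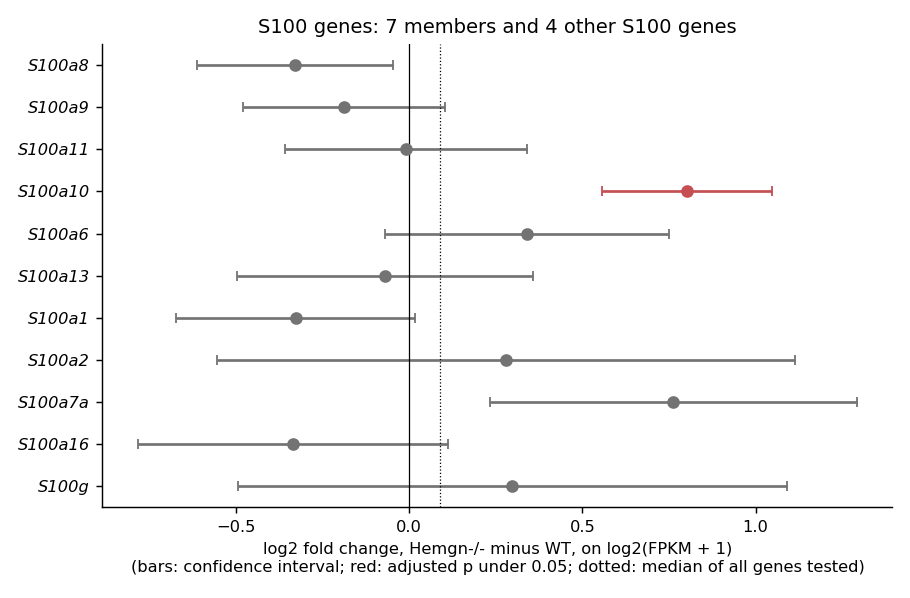
Log2 fold changes (Hemgn-/- minus WT, on log2(FPKM + 1)) with 95% confidence intervals for the 7 members tested and 4 other S100 genes; red marks an adjusted p under 0.05 and the dotted line the median of all genes tested, 0.0875. The interval of S100a10 (0.56 to 1.05) lies above the line, and S100a7a (0.23 to 1.29) is as high but did not pass.

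The 3 Hemgn-/- libraries differed from each other for most members. The first Hemgn-/- library was the lowest of its group for S100a6, S100a8, S100a9, S100a10, S100a11 and S100a13, by 0.18 (S100a10) to 0.41 (S100a11) below the group mean of log2(FPKM + 1). The median of short genes outside the family was low there too. Over 118 protein-coding genes that are not members, with exons of at most 1000 bases in all and a mean FPKM of at least 5, the median deviation from the group mean was -0.20 in the first, 0.17 in the second and 0.033 in the third Hemgn-/- library, against -0.021 to 0.028 in the WT libraries. Over 5645 longer genes it stayed between -0.009 and 0.012 in all 6 libraries. Of the members, all but S100a6 and S100a10 have exons of at most 1000 bases. Length did not match the members' deviations in the first Hemgn-/- library throughout: the longer S100a6 was at -0.40 and the short S100a1 at 0.004. The median log2 fold change was -0.042 over the short genes and 0.088 over the long ones. With the libraries centred on the short genes, a setting chosen after seeing the data, S100a10 had a log2 fold change of 0.86 ± 0.15 (SE, limma adjusted p = 0.0060), and 0 other members passed. Without the first Hemgn-/- library, the log2 fold change was 0.20 for S100a11, -0.03 for S100a9 and -0.21 for S100a8, in place of -0.01, -0.19 and -0.33, and none passed. The part of gene length in the members' values was not tested further.

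**Figure D4:**
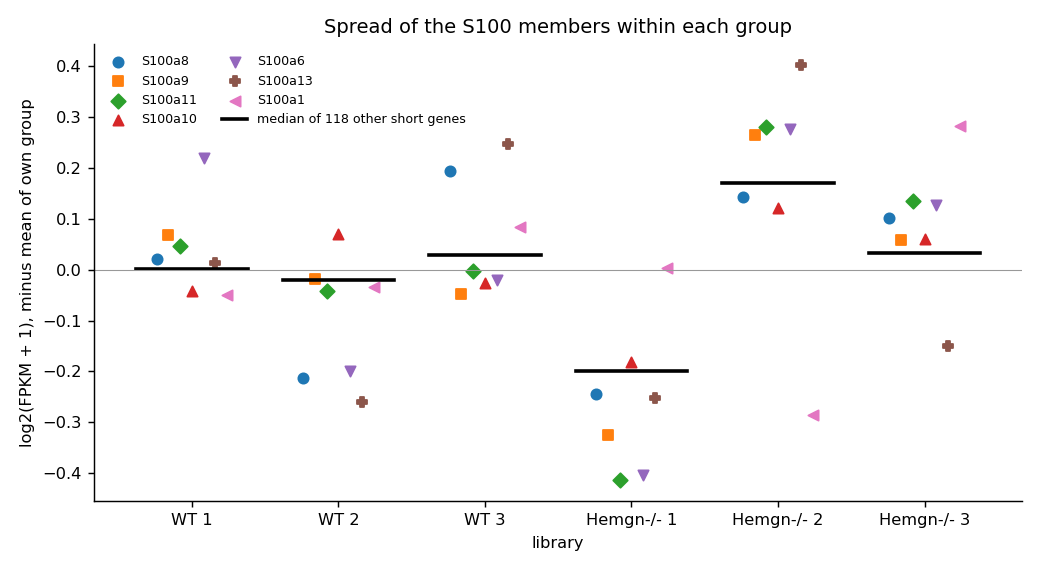
Deviation of log2(FPKM + 1) from the mean of the library's own group for the 7 members tested (symbols) and the median of 118 other protein-coding genes with exons of at most 1000 bases (black bars), by library. The members of the first Hemgn-/- library lie at or below its short-gene median of -0.20 for 5 of 7 genes, and most members of the second lie above 0.

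Across the 6 libraries the closest pairs of members were S100a9 with S100a11 (Pearson's r = 0.87), S100a8 with S100a9 (r = 0.75) and S100a6 with S100a11 (r = 0.74). S100a10 followed S100a6 most (r = 0.69) and ran opposite to S100a1 (r = -0.71). These values describe 6 libraries that share the group difference and the spread of short genes described above. Among 6283 genes outside the family with a mean FPKM of at least 5, those most like S100a10 were Oas3, an interferon-induced oligoadenylate synthetase (r = 0.996), and the pseudogene Rpl34-ps1 (r = 0.994), and 530 genes had r above 0.9. Those most like S100a8 were Ethe1, a mitochondrial sulfur dioxygenase (r = 0.994), and Trem3, a myeloid receptor (r = 0.993). Those most like S100a9 were Mzb1 and Sh3bgrl3 (r = 0.990 and 0.984). S100a11 had Gm13012 and Gm20406 (both 0.985), S100a6 had Kmt2d and Tmem101 (0.991 and 0.985), S100a1 had Tyw5 and Plk4 (0.994 and 0.983), and S100a13 had Spg21 and Pam16 (0.980 and 0.979).

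Genes whose proteins bind S100 proteins inside the cell, or receive them outside it, were followed as a list. Of 24 listed genes 21 were tested, 2 rose, 1 fell and 18 did not pass, beside 4.37% and 2.09% of all genes tested that rose and fell, and the median log2 fold change was 0.07, against 0.0875 over all genes. Anxa6, an annexin bound by S100a1 and S100a6, was at 49.3, 53.8 and 48.2 FPKM in WT libraries and rose to 75.8, 70.2 and 77.2 FPKM in Hemgn-/- libraries (log2 fold change 0.55 ± 0.08, SE, limma adjusted p = 0.0048), and it passed under every alternative. Of the 5 annexins tested, Anxa6 was the only one to pass, and differences between annexins were not tested.

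Among receptors, Tlr4, which S100a8 and S100a9 can activate, was at 9.80, 12.6 and 12.3 FPKM in WT libraries and 14.9, 15.9 and 18.7 FPKM in Hemgn-/- libraries, without overlap, and did not pass (log2 fold change 0.48 ± 0.13, SE, limma adjusted p = 0.063). Cd33, a sialic acid-binding receptor for which S100a9 has been described as a ligand, rose from 43.6, 44.2 and 44.3 FPKM in WT libraries to 55.9, 58.9 and 65.0 FPKM in Hemgn-/- libraries (log2 fold change 0.43 ± 0.08, SE, limma adjusted p = 0.015). Its adjusted p was 0.073 without the third Hemgn-/- library, 0.060 without the first WT library and 0.050 without the third WT library. Cybb, the catalytic subunit of the phagocyte NADPH oxidase to which calprotectin delivers arachidonic acid, fell from 619, 626 and 599 FPKM in WT libraries to 473, 446 and 481 FPKM in Hemgn-/- libraries (log2 fold change -0.40 ± 0.06, SE, limma adjusted p = 0.0053). With the libraries centred on short genes or without a trend in the variance, neither Cd33 nor Cybb passed.

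**Figure D5:**
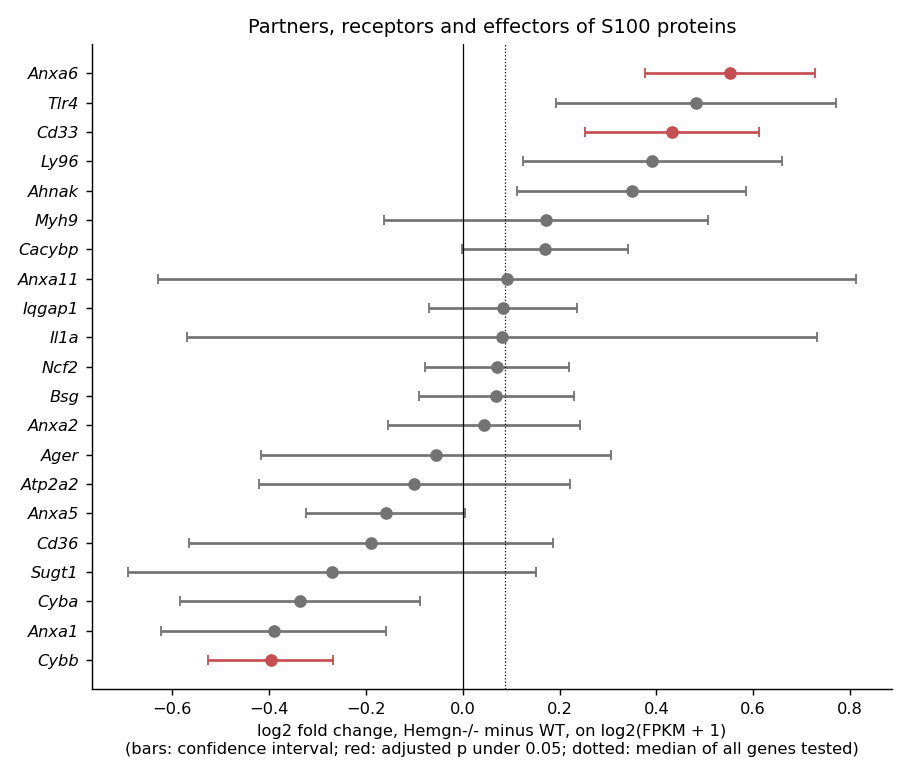
Log2 fold changes (Hemgn-/- minus WT, on log2(FPKM + 1)) with 95% confidence intervals for 21 genes of S100 partners, receptors and effectors, in order of size; red marks an adjusted p under 0.05 and the dotted line the median of all genes tested. Anxa6 (0.55) and Cd33 (0.43) lie above the line and Cybb (-0.40) below it.

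Markers of several other cell types also differed between the groups, in both directions. Of the markers tested, 3 of 6 B cell, 3 of 8 T and NK cell, 3 of 5 plasmacytoid dendritic cell, 4 of 10 monocyte and macrophage and 2 of 11 HSPC genes rose, while 4 of 8 erythroid, 3 of 6 eosinophil and basophil, 3 of 5 primary granule and 2 of the monocyte and macrophage genes fell. Over all genes tested, 4.37% rose and 2.09% fell. No gene of these lists was at 0 in all libraries. Summed FPKM in WT and Hemgn-/- libraries was 1160 to 1220 and 1380 to 1550 for B cell genes, 169 to 174 and 187 to 214 for T and NK cell genes, 7.60 to 8.10 and 16.6 to 20.8 for plasmacytoid dendritic cell genes, 23000 to 25700 and 16600 to 20700 for monocyte and macrophage genes (440 to 497 and 433 to 514 without Lyz2, which made up most of that sum), and 44.8 to 49.0 and 54.6 to 64.0 for HSPC genes. It was 461 to 547 and 32.2 to 51.7 for erythroid genes, 697 to 811 and 533 to 566 for eosinophil and basophil genes and 688 to 736 and 483 to 530 for primary granule genes. Of 3 megakaryocyte and 4 endothelial genes tested, 0 passed, with sums of 11.9 to 13.6 and 12.0 to 14.2 for the first list and 7.96 to 8.80 and 6.54 to 8.05 for the second.

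The most abundant gene of each list had the following log2 fold changes. Cd79b (B cells) was at 0.27, Siglech (plasmacytoid dendritic cells) at 1.15, Lyz2 (a lysozyme of monocytes that neutrophils also make) at -0.37, Hba-a1 (erythroid cells) at -4.01 and Elane (primary granules) at -0.73, and these passed, although Cd79b and Lyz2 did not when any 1 library was left out. Nkg7 (T and NK cells) was at -0.04, Prss34 (basophils) at 0.06, Ly6a (Sca-1, HSPCs) at 0.58, Itga2b (megakaryocytes) at 0.26 and Stab2 (endothelium) at -0.55, and these did not pass. Prss34 and Nkg7 do not stand for their whole lists. Epx, Prg2 and Prg3 (eosinophils) were at -2.72, -1.99 and -1.51 and passed, whereas Mcpt8 and Cpa3 did not. Cd3d, Gzma and Klrd1 were at 1.28, 0.49 and 0.48 and passed, and 5 of the 8 T and NK genes did not. Lyz2 does not stand for its whole list either, and of the alternatives it passed only after median-ratio scaling and by voom on recovered fragments. F13a1 (0.91), Ms4a4c (0.84), Adgre1 (0.51) and Csf1r (0.50) rose, while C1qb (-0.44) fell as Lyz2 did. The genes added to the most abundant ones are named after their values were seen. The part of other cells in the change of S100a10 was not tested.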

How the data were processed

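The authors deposited FPKM values per gene, with 1 column for each of 6 libraries (3 WT and 3 Hemgn-/-) and no visible scaling beyond each library's total. The submitters' processing notes name GRCm38 and the tools Bowtie2 2.2.3, HISAT2 2.1.0, TopHat2 and HTSeq 0.6.0 without roles. FPKM times the GENCODE M21 exon length gave whole fragments (within 0.05) for 95.7% of 13482 genes with at most 100 fragments, and hence the depth. Of 24965 genes, 24921 matched the annotation.

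Values were taken as log2(FPKM + 1), which understates changes of low genes, and limma 3.58.1 (R 4.3.3) was run on the 13739 genes that exceeded 1 FPKM in any library (eBayes with a trend, two-sided, Benjamini-Hochberg over all genes tested). The method was tested on simulated data. Replicates differed by more than counting error, and p-values measure the spread between these libraries, which the methods call biological replicates. Intervals on fragments cover counting error only.

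Members and lists were chosen with earlier results of these data known. Named were the members, other S100 genes, partners that passed with Anxa2, Ahnak and Tlr4, the most abundant gene per marker list, the genes most like each member, and Hemgn. Alternatives were another pseudocount (0.1), filter, scaling or variance model, voom on recovered fragments, the replicate number as a block, leaving out each library and, chosen after seeing the data, centring on short genes. Python 3.11.15 was used for the remaining steps.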

Additional observations from a re-analysis of the deposited data

How the results depend on the processing

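The call of S100a10 and the count of 1 member called were kept under all 16 alternatives. Without filter 466 genes passed in place of 887, without a variance trend 390, centred on short genes 446, and without 1 library each 373 to 688, the fewest without the third Hemgn-/- library, 470 without the first and 494 without the third WT library and 525 without the second Hemgn-/- library. Of the partners and receptors, 6 passed in place of 3 after rescaling to equal FPKM totals and by voom on recovered fragments, and 1 without a variance trend and centred on short genes. With the replicate number as a block, 636 genes passed, the members' count was 1 and the partners' count 4. Deviations of same-numbered libraries correlated at -0.0428, -0.00936 and 0.0111, so the numbers were not taken to pair the samples.

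Signs turned only for genes that did not pass in the main setting, and none of the turned values passed. Most of these genes had log2 fold changes near 0, but S100a9 was at -0.19 and S100a2 at 0.28. S100a9 was at 0.20 after quantile normalization. S100a11 was at 0.080 and S100a13 at 0.014 with equal FPKM totals, S100a11 at 0.047 centred on short genes, and without 1 library each S100a11 lay between -0.15 and 0.20, S100a13 between -0.27 and 0.057 and S100a2 between -0.039 and 0.61. Anxa2 was at -0.057 after median-ratio scaling, -0.033 after quantile normalization and between -0.0070 and 0.12 without 1 library each. Mmp8 was at -0.096 after median-ratio scaling and between -0.029 and 0.059 without 1 library each. Prss34 was at -0.043 after median-ratio scaling, and Nkg7 at 0.045 with equal FPKM totals, 0.012 centred on short genes and between -0.17 and 0.095 without 1 library each. Ahnak and Tlr4 passed with equal FPKM totals and by voom, Ly6a with equal FPKM totals (0.70), centred on short genes (0.63) and without the first Hemgn-/- library (0.74), and Stab2 by voom (-0.76) and without the second WT library (-0.68). Hemgn missed the threshold without a filter on low values (limma adjusted p = 0.061) and without the third WT library (0.0503). The causes were not tested. Of 112 values of the members over the alternatives, 103 kept their sign and their side of the threshold. Of the marker genes that passed, Cd79b and Lyz2 lost the call without any 1 of the libraries. Of all the alternatives, Lyz2 kept it only after median-ratio scaling (limma adjusted p = 0.024) and by voom (0.0068). Cd79b also lost it without a filter, after median-ratio scaling, without a variance trend, with the replicate block and centred on short genes. Values of S100a1 rest on as few as 81 fragments in a library.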
